A study of Mus musculus with 4 samples.

Results

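miR-126a is a vertebrate miRNA whose hairpin lies within Egfl7, a gene for a secreted protein of blood vessels. Both of its arms, mmu-miR-126a-5p and mmu-miR-126a-3p, were taken by name from the deposited table of mature miRNAs, so that 2 of 1907 listed miRNAs are described here. Small RNA-seq had been performed on E14Tg2A, a mouse ES cell line of strain 129/Ola, and on the epiblast-like aggregates (ELA) derived from it. ES cells (0 days in vitro) were kept in serum with LIF, or in 2iL, which combines LIF with the MEK inhibitor PD0325901 (1 μM) and the GSK3 inhibitor CHIR99021 (3 μM) and lacks serum. ELA were aggregated in suspension for 2 days, in minimal medium with neither LIF nor inhibitors, and their labels refer to the medium of the ES cells of origin. There was 1 library of ES cells and 1 of ELA for each medium (ES serum and ES 2iL, then ELA serum and ELA 2iL), made from the RNA of 3 sets of experiments that were pooled, so no value has a replicate error. All libraries come from 1 cell line.

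A miRNA hairpin is cut by Drosha and Dicer into a 5p and a 3p strand, either of which can be loaded on Argonaute, where the seed (bases 2 to 8) guides the pairing with mRNAs. miR-126 is best known as a miRNA of endothelial cells, in which it sustains vessel integrity and growth factor signalling by repressing inhibitors of that pathway such as Spred1. It is also found in blood progenitors. Pluripotent cells are characterised instead by the miR-290 and miR-302 families.

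The mature sequences of the locus are given because miRNAs of both strands are annotated there. The RefSeq miRNA table (GRCm38.p6) held mmu-miR-126a-3p and both arms of mmu-miR-126b, a second miRNA annotated at the same place. mmu-miR-126a-5p is given by name only. Sequences run 5′ to 3′ with the seed in capitals.
mmu-miR-126a-3p: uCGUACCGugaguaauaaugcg
mmu-miR-126b-5p: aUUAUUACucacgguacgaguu
mmu-miR-126b-3p: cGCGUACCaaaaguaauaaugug
None of these 3 seeds was shared with another mature miRNA of that table (0 others for each).

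The Mir126a hairpin of RefSeq was found once on chromosome 2 of mm9, the build to which the authors mapped, as an exact match (chr2:26446877-26446949, plus strand, 73 bases). By GENCODE vM1 it lies inside Egfl7 and the overlapping protein-coding gene Gm20532, both on the same strand. Of 21 annotated Egfl7 transcripts, 10 carry the hairpin in an intron, which in 8 of them is an intron of 600 bases. In 1 transcript with a retained intron the hairpin falls in an exon, and 10 transcripts do not reach it. mmu-miR-126a-3p takes up bases 46 to 67 of the hairpin (chr2:26446922-26446943).

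The Mir126b hairpin is the same DNA read from the minus strand (chr2:26446883-26446940). It is the reverse complement of bases 7 to 64 of the Mir126a hairpin. mmu-miR-126b-5p covers bases 43 to 64, and 19 of its 22 bases lie over mmu-miR-126a-3p. mmu-miR-126b-3p covers bases 7 to 29, on the 5′ side of the Mir126a hairpin. Both miR-126b arms were therefore annotated wholly within the Mir126a hairpin, on its other strand.

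**Figure D1:**
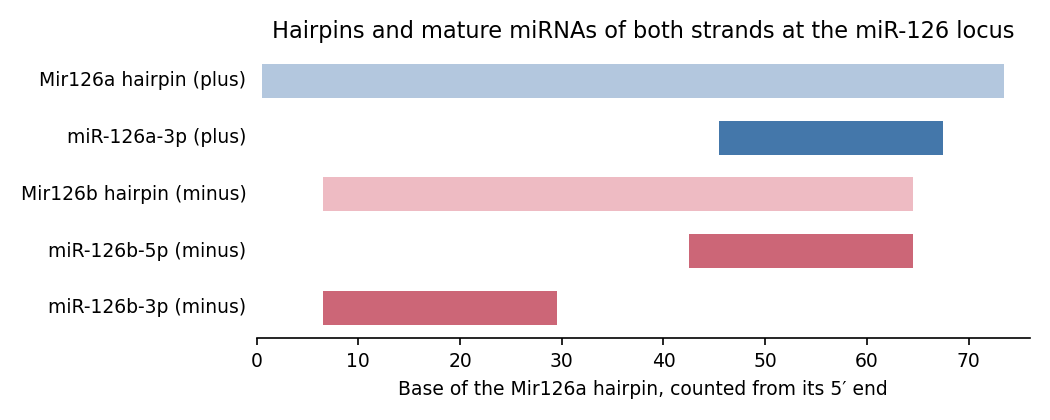
Position of the hairpins and mature miRNAs of both strands along the Mir126a hairpin, in bases from its 5′ end (blue, plus strand; red, minus strand). mmu-miR-126b-5p shares 19 bases with mmu-miR-126a-3p, and mmu-miR-126a-5p is not drawn.

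Both arms of miR-126a were listed at 0 in every library. mmu-miR-126a-3p had 0 reads in ES cells from serum and 0 from 2iL, and 0 reads in ELA of either origin. mmu-miR-126a-5p likewise had 0 reads in each of the 4 libraries. The values are RPM, reads scaled to 1000000 reads assigned to listed miRNAs, and the whole reads behind them could be recovered. The libraries held 587363 to 8056984 such reads. A count of 0 allows up to 3 reads, which corresponds to 0.372 RPM (serum) and 1.08 RPM (2iL) in ES cells, and to 0.696 RPM (serum) and 5.11 RPM (2iL) in ELA. These limits cover counting error only, and they hold for reads that were assigned to the miRNA, which is a narrower quantity than the miRNA in the cells. The limit of the shallowest library, ELA 2iL, is 13.7 times that of the deepest one.

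A value of 0 throughout was frequent in the table, with 705 of 1907 miRNAs (37%) listed at 0 in all 4 libraries. The arms of miR-126a had too few reads for the test across all miRNAs, which took the 599 miRNAs that reached 10 reads in 2 or more libraries. With 0 reads on both sides no fold change was formed for the ES–ELA transition or for the medium, and no share of the 3p arm could be computed.

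The only miRNA of the locus with reads was mmu-miR-126b-3p, from the minus strand. It had 9 reads in ES serum (95% Poisson interval 4.12 to 17.1), 2 in ES 2iL (0.242 to 7.22), 4 in ELA serum (1.09 to 10.2) and 1 in ELA 2iL (0.0253 to 5.57). In RPM this was 1.12 (serum) and 0.723 (2iL) in ES cells, and 0.928 (serum) and 1.70 (2iL) in ELA. The intervals of the 4 libraries overlapped, and the highest RPM rested on a single read. mmu-miR-126b-5p, which shares 19 bases with mmu-miR-126a-3p, was at 0 in each library.

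**Figure D2:**
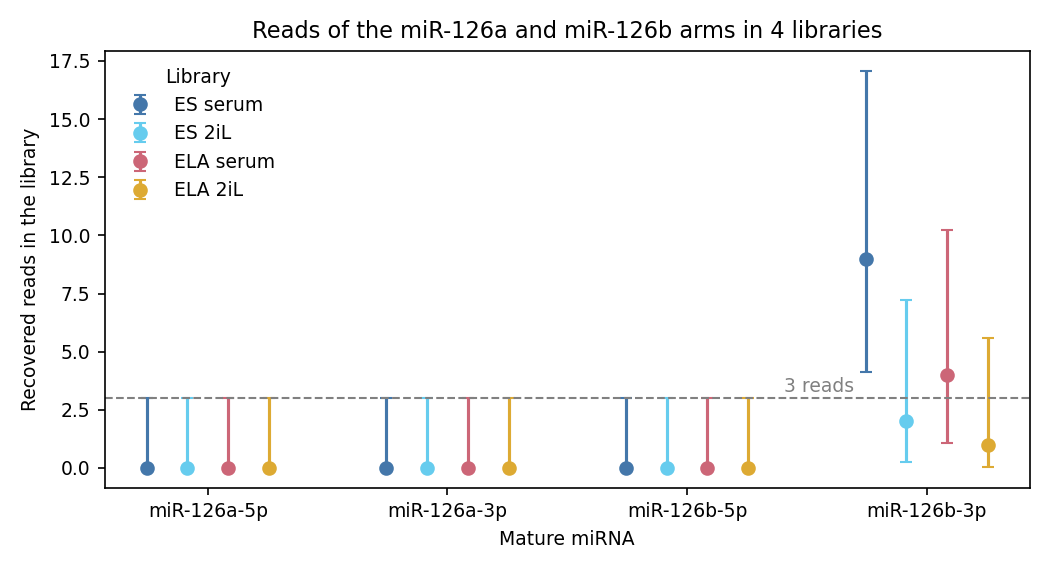
Recovered reads (y axis) of the miR-126a and miR-126b arms (x axis) in the 4 libraries (colours). Points are single libraries, bars are 95% Poisson intervals or, for a count of 0, the limit of 3 reads. Only mmu-miR-126b-3p rises above 0, with 9, 2, 4 and 1 reads.

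At this depth no change of mmu-miR-126b-3p was detectable. In serum, the log2 ratio of ELA to ES was −0.27, with an exact 95% counting interval of −2.42 to 1.57. In 2iL it was 1.24 (−4.65 to 5.50). The ratio of 2iL to serum was −0.63 in ES cells (−3.88 to 1.64) and 0.88 in ELA (−4.75 to 4.21). All 4 intervals include 0, and each is wide enough to hold more than a doubling or a halving. Each compares 1 library with 1 library and has no test.

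An overlap on the opposite strand was not particular to this locus. Among the 1005 hairpins that the RefSeq table held, which are not every hairpin with a placed mature miRNA, 24 pairs overlapped on opposite strands. Of the listed miRNAs, 1623 could be placed by name, and 56 of them were covered at every one of their loci by a listed mature miRNA of the other strand (by 11 to 22 bases, median 20). mmu-miR-126a-3p and mmu-miR-126b-5p are 2 of the 56. Like them, many of the 56 are partners of one another, so an overlap is often counted from both sides. The 56 were not matched to other miRNAs for the tissues that make them. Of the 56, 45 miRNAs (80.4%) were at 0 in all libraries and 49 (87.5%) had at most 3 reads in each. Of the 1560 miRNAs with no placed mature miRNA on the other strand, where the 284 miRNAs not placed could still lie, 556 (35.6%) were at 0 and 851 (54.6%) had at most 3 reads. The upper end differed as well. In ES serum 164 of the 1560 had over 1000 reads, against 0 of the 56, in which the highest count in any library was 173.

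In 7 of the 56 more than 3 reads were listed, and in all 7 cases the miRNA on the other strand was at 0 in every library. mmu-miR-3071-3p had the most, with 173 (serum) and 8 (2iL) reads in ES cells and 102 (serum) and 6 (2iL) in ELA, and lies over mmu-miR-136-5p. mmu-miR-126b-3p was counted among miRNAs with no mature partner, although it lies over the 5′ side of the Mir126a hairpin. mmu-miR-126a-5p was not placed, so it was counted in neither group. Its overlap with mmu-miR-126b-3p could not be computed.

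**Figure D3:**
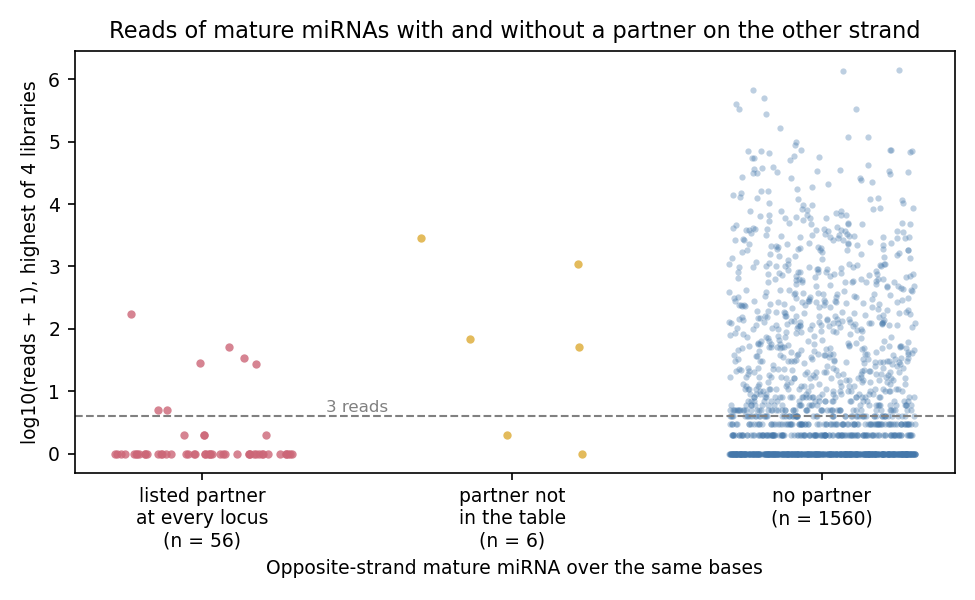
Highest read count of each miRNA over the 4 libraries, as log10(reads + 1), for miRNAs covered by a listed miRNA of the other strand at every locus, by a miRNA that is not in the table, or by none. The dashed line marks 3 reads. Of the 56 in the first group 49 lie at or under the line, against 851 of 1560 in the last.

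Some of the covered miRNAs are described singly. They were picked after their values were seen, and the reason for these values was not tested. Both arms of mmu-miR-290a, from the main miRNA cluster of mouse ES cells, and mmu-miR-292a-5p of the same cluster were at 0 in every library. mmu-miR-292a-3p was at 0 as well and is not among the placed miRNAs. Their uncovered neighbour mmu-miR-295-3p measured 49948 RPM (serum) and 126073 RPM (2iL) in ES cells, and 35327 RPM (serum) and 96518 RPM (2iL) in ELA. mmu-miR-24-3p, a broadly expressed miRNA with 2 loci that are both covered by mmu-miR-3074-5p, had 4 reads in ES serum, 1 in ES 2iL and 0 in both ELA libraries. The co-transcribed mmu-miR-27b-3p had 165784 (serum) and 65762 (2iL) reads in ES cells, and 73995 (serum) and 5714 (2iL) in ELA.

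In some hairpins 1 arm was covered and the other had no placed mature miRNA over it. In Mir30e the 3p arm is covered over 19 bases by mmu-miR-30f from the other strand, and the 5p arm has none over it. The sequences are shown because their positions resemble those of mmu-miR-126a-3p and mmu-miR-126b-5p (GRCm38.p6 coordinates, seeds in capitals).
mmu-miR-30e-5p (chr4:120772660-120772681, minus strand): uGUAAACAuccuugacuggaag
mmu-miR-30e-3p (chr4:120772618-120772639, minus strand): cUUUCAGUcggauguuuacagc
mmu-miR-30f (chr4:120772621-120772642, plus strand): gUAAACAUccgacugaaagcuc
mmu-miR-30e-5p had 49899 (serum) and 44086 (2iL) reads in ES cells, and 33364 (serum) and 7896 (2iL) in ELA. mmu-miR-30e-3p had 0 in all 4. mmu-miR-30f over it had 50, 7, 18 and 0 reads in that order, unlike mmu-miR-126b-5p, which was at 0. mmu-miR-142a-5p, a miRNA known from blood cells, had 4759, 4442, 2367 and 1174 reads in the same order, whereas its covered arm mmu-miR-142a-3p, the better known strand, was at 0. mmu-miR-497a-5p had 1022, 318, 497 and 91 reads, and its covered arm mmu-miR-497a-3p had 0, with 26, 2, 15 and 0 reads for mmu-miR-497b over it. In the 3 hairpins with a free arm of at least 1000 reads in a library the covered arm was at 0 throughout. These hairpins were chosen after their values were seen. The limit of 1000 reads leaves out Mir292b and Mir24-1, given below, among others. Among 134 hairpins whose arms were both uncovered and of which one reached 1000 reads, the lesser arm was at 0 throughout in 3. In Mir292b the covered arm mmu-miR-292b-3p had 33, 19, 13 and 5 reads and mmu-miR-292b-5p, with no placed miRNA over it, had 0. In Mir24-1 the covered mmu-miR-24-3p had the 4, 1, 0 and 0 reads given above and mmu-miR-24-1-5p had 0. These hairpins overlap Mir292 (62 bases) and Mir3074-1 (68 bases) on the other strand. Listed miRNAs that were not placed, such as mmu-miR-292a-3p, could therefore lie over the arms counted as uncovered.

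**Figure D4:**
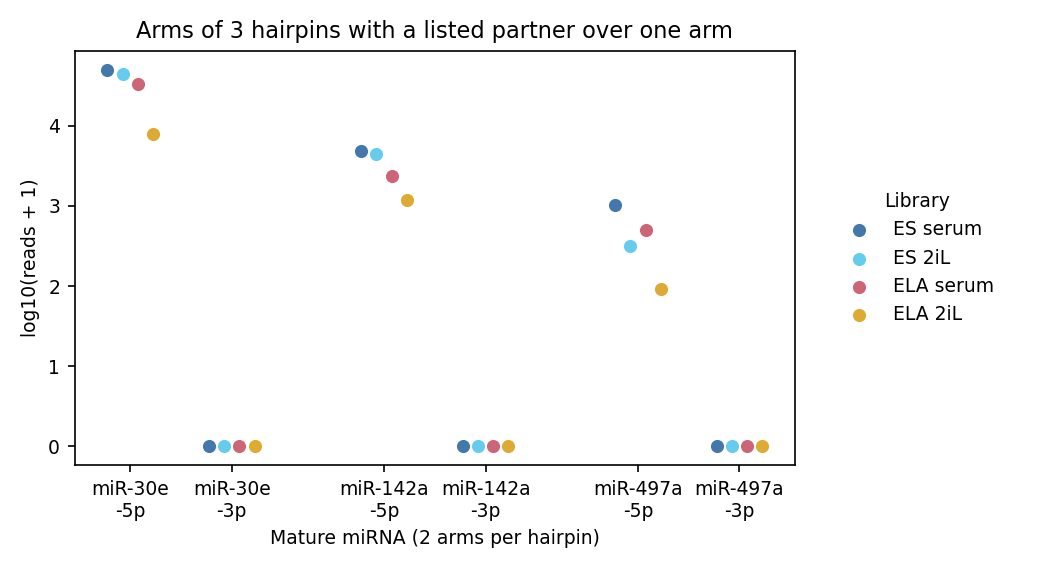
Reads of the 2 arms of 3 hairpins in the 4 libraries, as log10(reads + 1). In Mir30e, Mir142 and Mir497 the uncovered 5p arm had 91 to 49899 reads and the covered 3p arm 0 in each library.

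For 6 miRNAs the miRNA of the other strand was not itself in the table, and 2 of these had at most 3 reads. mmu-miR-9-5p has 3 loci and lies over mmu-miR-9b-3p, which is not a row of the table, at 1 or more of them. It had 2865 (serum) and 433 (2iL) reads in ES cells, and 1058 (serum) and 128 (2iL) in ELA. mmu-miR-203-3p, over mmu-miR-203b-5p, had 1087, 24, 323 and 15. mmu-miR-129-5p has 1 covered and 1 uncovered locus and had 363, 21, 272 and 21 reads. The strand setting of the read counting, and what was done with reads over more than 1 annotated miRNA, were not stated, and their part in the values of 0 at miR-126a was not tested. The level of miR-126a is therefore given as listed at 0.

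A list of 26 other miRNAs of vascular biology (both arms of miR-126b, miR-23, miR-24 and miR-27, the miR-17 cluster, miR-221, miR-222 and others), many of them broadly expressed, had 23 members in the test and 19 that averaged 5 or more on log2(RPM + 1), where 599 and 302 of all 1907 listed miRNAs did. As the samples are bulk RNA, fewer cells of a type and less RNA per cell cannot be told apart. With limma (Benjamini-Hochberg) 0 of the 23 reached an adjusted p-value under 0.05, for stage as for the medium, where 0 of all 599 passed (0%), while 125 of the 599 had an unadjusted p-value under 0.05 for stage and 176 for the medium. edgeR on the recovered reads called 0 members for stage (6.51% of all tested) and 2 for the medium (10.7%). DESeq2 called 2 for stage (8.35%) and 2 for the medium (13.4%), and limma without the filter 2 (8.24%) and 2 (10.8%). Without the filter the standard error was the same for all miRNAs, so those calls measure no spread of a single miRNA. The median stage contrast (ELA minus ES on log2(RPM + 1), mean of both media) was 0.09 over the 23 and −0.22 over all 599, and the median medium contrast (2iL minus serum) was 0.45 and 0.32.

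By size, of the 19 members at that level, 2 were lower by at least 1 on the log2 scale in both media, where 8.94% of the 302 miRNAs averaging 5 or more on log2(RPM + 1) were, and 0 were higher, where 6.95% were. mmu-miR-23a-3p measured 250.5 RPM (serum) and 320.9 RPM (2iL) in ES cells, and 40.6 RPM (serum) and 122.6 RPM (2iL) in ELA (limma adjusted p = 0.153). mmu-miR-27a-3p, from the same cluster, measured 1091, 820.4, 298.7 and 340.5 RPM in that order (limma adjusted p = 0.183). Both ELA libraries lay below both ES libraries for these miRNAs. mmu-miR-155-5p, which averaged less than 5, was also lower by that much in both media, with 38.7, 22.4, 13.0 and 6.81 RPM. For the medium 1 of the 19 was higher in 2iL by at least 1 at both stages (13.9% of the 302 were), namely mmu-miR-19a-3p, a member of the miR-17 cluster, with 402.5, 1141, 737.5 and 6677 RPM (limma adjusted p = 0.114). Another was lower (7.62% were), namely mmu-miR-146a-5p, which restrains inflammatory signalling, with 166.8, 17.7, 223.5 and 30.6 RPM (limma adjusted p = 0.0899). These were the members that edgeR called for the medium (edgeR adjusted p = 0.0344 for mmu-miR-19a-3p and 0.00125 for mmu-miR-146a-5p). mmu-miR-132-3p, which averaged less than 5, was lower in 2iL by that much at both stages as well, with 23.0, 10.1, 20.4 and 6.81 RPM.

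The labelled cell types were checked with miRNAs known to mark them. Summed over 10 listed miRNAs of the miR-290 family, 4 of them at 0, the level was 45460 to 157537 RPM. Summed over 5 of the miR-302 cluster it was 5384 RPM (serum) and 69.8 RPM (2iL) in ES cells, and 34066 RPM (serum) and 5751 RPM (2iL) in ELA. In both media the ELA value was the higher one under the titles. With the exchange found in the description field, 34066 RPM would belong to ES 2iL and 69.8 RPM to ELA serum. The 9 listed blood miRNAs, 2 of them at 0, summed to 630.3 to 2216 RPM. mmu-miR-142a-5p had the most reads of them, followed by mmu-miR-150-5p of lymphocytes with 2927, 1609, 281 and 59 reads (363.3, 581.5, 65.2 and 100.4 RPM) and mmu-miR-155-5p with 312, 62, 56 and 4. Of the others, mmu-miR-223-3p had 0 to 12 reads in a library, mmu-miR-451a 2 to 20 and mmu-miR-144-3p 0 to 2. Of 6 listed miRNAs of mesenchyme, mmu-miR-143-3p measured 3102, 4729, 1451 and 1886 RPM, and the other 5 lay between 0 and 60.4 RPM. Those of muscle, liver and nerve (7) summed to 300.7 to 444.3 RPM, with the most from mmu-miR-9-5p. Within this sum mmu-miR-133a-3p of muscle measured 10.4 RPM (serum) and 0 RPM (2iL) in ES cells and 46.6 RPM (serum) and 71.5 RPM (2iL) in ELA (limma adjusted p = 0.144, edgeR adjusted p = 0.0246, both for stage). DESeq2 called 0 of these 7 for stage.

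The rule for the most similar pattern takes, among the 599 tested miRNAs, those nearest to an arm by the root-mean-square distance of centred log2(RPM + 1) values. A row of 0 has no pattern, so that the rule returned the miRNAs that varied least over the 4 libraries, the same for both arms. These were mmu-miR-431-3p (320.1 to 367.8 RPM, distance 0.073), mmu-miR-31-5p (130.5 to 155.5 RPM, distance 0.095) and mmu-miR-433-5p (33.6 to 40.9 RPM, distance 0.099), against a median distance of 0.70 over all tested. Under DESeq2 size factors the rule returned other miRNAs (mmu-miR-369-5p, mmu-miR-331-5p and mmu-miR-532-3p).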

How the data were processed

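Small RNA-seq libraries of 4 groups, 1 library each, were analysed. Per the methods of the study and the submitters' processing notes, the authors demultiplexed reads with CASAVA 1.8, trimmed adaptors with Trimmomatic, mapped with Bowtie to mm9, assigned reads to mature miRNAs of miRBase 20 with featureCounts and deposited RPM values. Versions of the last 3, the strand setting and the treatment of reads on several features are not given in the sources used here. Each column summed to 1000000. All values were whole multiples of 1 read (100% within 0.05 reads), which gave back the reads. Columns of per-sample values left unused: 0.

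Groups follow titles and source names. The description field exchanges ES 2iL and ELA serum, which leaves the values of miR-126a at 0 and would swap the stage and medium contrasts of every miRNA.

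Overlaps of mature miRNAs (at least 1 base, opposite strands) were computed in RefSeq coordinates (GRCm38.p6, Python 3.11.15, pandas 2.3.3). Intervals are exact Poisson, Clopper-Pearson or, for shares, Wilson (scipy 1.17.1) and cover counting error only, as the reads carry no molecular identifiers. limma 3.58.1 was fitted on log2(RPM + 1), a pseudocount of 1 RPM that understates changes of low miRNAs, with stage and medium as terms, over miRNAs reaching 10 reads in 2 or more libraries, and leaves 1 residual degree of freedom per miRNA. edgeR 4.0.16 and DESeq2 1.42.0 on the recovered reads were alternatives. The fit was also run on simulated reads as a check of the code, which does not measure the spread between real libraries. Named miRNAs were the miR-126a and miR-126b arms, the 3 nearest in pattern, and vascular list members averaging 5 or more on log2(RPM + 1) with a log2 change of at least 1 in both media or stages. mmu-miR-155-5p and mmu-miR-132-3p, which average less than 5, were named in addition to this rule. The miRNAs of the overlap comparison were chosen after their values were seen. Members and lists were chosen with earlier results of these data known.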

Additional observations from a re-analysis of the deposited data

Results flagged for a closer look

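The change of mmu-miR-126b-3p had opposite directions in the compared backgrounds, and the difference was not tested, since each change compares 1 library with 1 library. On log2(RPM + 1) the ELA minus ES change was −0.13 in serum (9 reads in ES, 4 in ELA) and 0.65 in 2iL (2 reads in ES, 1 in ELA). The 2iL minus serum change was −0.30 in ES cells and 0.49 in ELA. All 4 exact counting intervals of the ratios include no change.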

How the results depend on the processing

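With 0 reads, no scaling or pseudocount can move a contrast of the miR-126a arms, so the 5 alternatives run on them (TMM, DESeq2 size factors, totals without the 5 most abundant miRNAs, pseudocounts of 0.5 and 5 RPM) say nothing about stability. limma without the filter on low counts, edgeR, DESeq2's Wald test, ratios without a pseudocount and the share of the 3p arm gave no value for these arms, which have 0 reads. With the miR-126b reads added, the 9, 2, 4 and 1 reads of the locus all belong to mmu-miR-126b-3p. The alternatives for miR-126b-3p, for overlaps and for the vascular list were chosen after seeing the data. The stage contrast of mmu-miR-126b-3p ran from 0.09 to 0.41 and its medium contrast from −0.16 to 0.11. limma without the filter gave adjusted p-values of 0.929 and 0.948. That fit gave all miRNAs the same standard error (0.570), so these p-values measure no spread of mmu-miR-126b-3p itself. The share of covered miRNAs with at most 3 reads stayed within its 95% Wilson interval under all 5 alternatives tried. That interval treats the 56 as independent, though many are partners of one another. The alternative by hairpins (83.1%) leaves out hairpins that the RefSeq table did not place, such as that of mmu-miR-30f. By hairpins, 2 of 65 covered miRNAs had over 1000 reads in ES serum and the highest count was 4759, against 0 of 56 and 173 by mature miRNAs. For miRNAs with no partner the share with at most 3 reads was 54.6%. It lay outside its own Wilson interval with 0 reads (35.6%), with at most 10 reads (64.9%) and in ES serum alone (58.1%). Vascular list members past an adjusted p-value of 0.05 were 0 with limma for stage, 2 with DESeq2 and 2 with limma without the filter, and for the medium 0 with limma and 2 with each of edgeR, DESeq2 and limma without the filter. The cause was not tested. No paired analysis was possible because each group has 1 library, so that replicate numbers pair nothing, and limma compared ELA with ES within medium through its stage and medium terms. Depth limits the locus most in ELA 2iL, where 1 read is 1.70 RPM.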
